A study of Mus musculus with 11 samples.

Results

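The proteasome is the protease that degrades most ubiquitin-tagged proteins, and 41 genes for its subunits and close relatives were followed here in mouse liver sections after acetaminophen (APAP). The genes were chosen by name: symbols that begin with Psma, Psmb, Psmc or Psmd and a digit, pseudogenes left out, together with Psme1, Psme2 and Psme3, and a mean over the sections of at least 1 CPM (UMIs per 1000000 UMIs). Of 31053 genes in the matrix, 43 matched the names and 41 passed the minimum. Psmc3ip, at 2.10 CPM, and Psmd10, at 15.4, lay just inside it, and Psma8, at 0.730, and Psmb11, at 0.002, just outside. The 41 were grouped into 7 core alpha subunits, 7 core beta subunits, 6 cap ATPases, 11 other cap subunits, 3 cap assembly factors, 5 immunoproteasome genes (Psmb8, Psmb9, Psmb10, Psme1 and Psme2) and 2 others, Psme3 and Psmc3ip. Psmc3ip is caught by its name alone: it encodes a factor of meiotic recombination, not a proteasome subunit. It reached the minimum only through injured sections. It is counted among the 41 and described apart below.

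Gene expression was measured in place on 11 liver sections with Visium, in which barcoded spots under a tissue section capture messenger RNA and each molecule is counted once by its unique molecular identifier (UMI). There were 3 sections of uninjured liver (0 h) and 2, 2 and 4 sections at 24 h, 36 h and 48 h of APAP-induced injury. The methods describe mice fasted before APAP was given intraperitoneally, with wild-type C57BL/6JCrl animals among those used, and give 1 mouse for each time point of the spatial data. The sample labels call the injured sections POD, a term they do not spell out, and name no genetic change. Sections of a time point are therefore not known to be separate animals, p-values cover only the spread between these sections, and time and mouse cannot be told apart. After low-quality spots were removed, the sections held 1490 to 3466 spots and 31292663 to 67045372 UMIs.

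As background, the proteasome has a barrel-shaped core of stacked alpha and beta rings and a cap. Psmb5, Psmb6 and Psmb7 encode the beta subunits that cut peptide bonds. The cap holds a ring of ATPases (Psmc1 to Psmc6) that unfold substrates, and other subunits that bind ubiquitin or remove it, such as Psmd4 and Psmd14. In cells exposed to interferon, Psmb8, Psmb9 and Psmb10 replace Psmb5, Psmb6 and Psmb7 in newly built cores, which are then called immunoproteasomes, and the activator made of the Psme1 and Psme2 products can take the place of a cap. The peptides produced feed antigen presentation by MHC class I. The transcription factor NFE2L1 is known to raise core and cap genes together when proteasome capacity falls short.

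The promoters below are those of Psmb5, a constitutive catalytic subunit, and of Psme1 and Psmb8 of the immunoproteasome. Psmb5 was the only core gene that rose at 24 h, so it does not stand for the core, and no cap promoter is shown. The promoters are RefSeq windows of 250 bases before to 50 bases after the transcription start, on build GRCm38.p6. They are printed 5′ to 3′ on the strand of the gene. Capitals mark a match, on either strand, to TGACNNNGC, the core of the antioxidant response element, or to GAAANNGAA, the core of the interferon-stimulated response element, and the Psmb8 window holds neither. In GENCODE M21 the Psmb8 gene begins at 34197721 and Psme1 at 55578123, so both windows lie inside the gene. The sequence before those starts was not searched, so a lack of matches in the Psmb8 window does not cover it. The Psmb5 window is chr14:54617946-54618245 on the minus strand, Psme1 is chr14:55578244-55578543 on the plus strand, and Psmb8 is chr17:34197945-34198244 on the plus strand.
Psmb5 promoter: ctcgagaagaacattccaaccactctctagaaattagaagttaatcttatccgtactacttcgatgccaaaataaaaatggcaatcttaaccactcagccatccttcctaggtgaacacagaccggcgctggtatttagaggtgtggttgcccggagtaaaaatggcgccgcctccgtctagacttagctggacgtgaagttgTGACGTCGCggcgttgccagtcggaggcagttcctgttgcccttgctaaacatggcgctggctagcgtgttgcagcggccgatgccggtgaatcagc
Psme1 promoter: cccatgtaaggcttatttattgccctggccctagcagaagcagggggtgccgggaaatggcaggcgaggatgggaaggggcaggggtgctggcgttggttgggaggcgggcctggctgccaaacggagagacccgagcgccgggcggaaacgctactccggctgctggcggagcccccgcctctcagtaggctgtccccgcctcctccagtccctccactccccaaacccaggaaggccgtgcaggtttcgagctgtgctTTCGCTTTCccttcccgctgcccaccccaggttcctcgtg
Psmb8 promoter: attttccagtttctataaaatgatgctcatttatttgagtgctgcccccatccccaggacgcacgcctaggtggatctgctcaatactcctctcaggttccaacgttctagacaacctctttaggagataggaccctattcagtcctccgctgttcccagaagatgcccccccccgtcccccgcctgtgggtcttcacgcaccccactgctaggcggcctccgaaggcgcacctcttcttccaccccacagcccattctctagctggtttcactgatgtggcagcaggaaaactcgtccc

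Of the 41 genes, 35 had a window in the RefSeq table. TGACNNNGC was found for 5 of them (Psmb5, Psmb6, Psmc6, Psmd9 and Psmd12), and in 12.4% of all 32851 windows. GAAANNGAA was found for 6 (Psmb3, Psmb4, Psmc2, Psmd4, Psmd9 and Psme1), and in 8.56% of all windows. The capitals begin 47 bases before the RefSeq start in Psmb5 and 10 bases after the RefSeq start in Psme1. The matches are letters in a window, not measured binding. The genes themselves are spread over the genome, except that Psmb8 (chr17:34197721-34201454, GENCODE M21, GRCm38) and Psmb9 (chr17:34181987-34187764) flank the peptide transporter gene Tap1 (chr17:34187553-34197225) in the MHC region, and Psme1 (chr14:55578123-55581529) and Psme2 (chr14:55587441-55591113) lie side by side. Psmb9 and Tap1 overlap on opposite strands. Psme2 has a near-identical copy, Psme2b, so reads that match both may be missing from its count.

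How the libraries are put on a common scale decides the direction of several results. The TMM scaling factors ran from 0.7835 to 0.8105 at 0 h, 0.9828 to 1.011 at 24 h, 1.051 to 1.103 at 36 h and 1.137 to 1.166 at 48 h. Values below are CPM of the TMM-scaled library unless stated otherwise. With TMM, the median log2 fold change of all 14821 genes tested was 0.05, 0.05 and 0.01 at 24 h, 36 h and 48 h against 0 h. With scaling by total UMIs it was 0.37, 0.49 and 0.54, so that a proteasome gene that fell relative to the typical gene can still have risen as a share of all UMIs. Each group is given relative to that median as well.

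At 24 h the cap and the immunoproteasome parted. The 17 cap subunits summed to 1489, 1387 and 1466 CPM at 0 h and to 1923 and 1784 CPM at 24 h, without overlap. The 14 core subunits summed to 2658, 2480 and 2578 CPM at 0 h and to 2812 and 2490 CPM at 24 h, which overlap. The 5 immunoproteasome genes summed to 396, 398 and 436 CPM at 0 h and to 355 and 291 CPM at 24 h. The plot of these sums by time shows the cap as the group with the clearest peak.

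**Figure D1:**
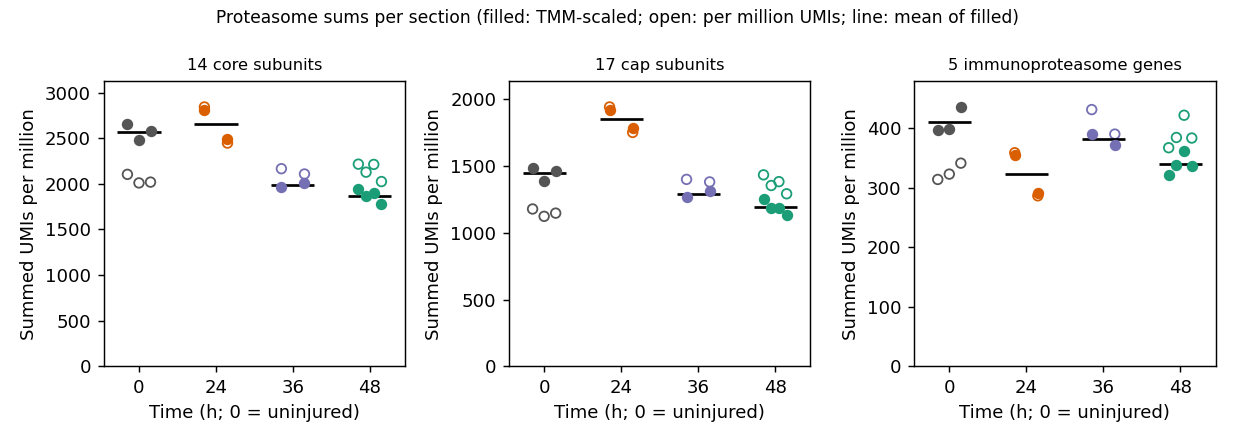
Sums of the core, cap and immunoproteasome genes in each section (vertical axes, CPM, from 0) against time. Filled points are TMM-scaled, open points are scaled by total UMIs and lines are means of the filled points; both scales put the cap highest at 24 h, while the order of 0 h and 48 h turns over between them.

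Against 0 h, 12 of the 41 genes rose and 6 fell at 24 h, where 23.1% of all genes tested rose and 18.6% fell (edgeR quasi-likelihood test, Benjamini-Hochberg adjusted p under 0.05). All 12 that rose also rose with total-count scaling. They were 10 cap subunits, Psmb5 and Psmc3ip. Of the 17 cap subunits that the name rule reaches, 10 rose and 0 fell. Their median log2 fold change was 0.33, which is 0.29 above the median of all genes with either scaling. Sem1 and Adrm1, whose products also belong to the cap, have other names and are given below with the genes for assembly and regulation. Of the 14 core subunits 1 rose and 2 fell, with a median of -0.0019, which is 0.05 below that of all genes. The count of genes that rose dropped to 3 without section A of 24 h and to 6 without section 2 or section 3 of 0 h.

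Among the cap subunits, Psmd1, a large scaffold of the cap base, had the largest rise. It stood at 16.7, 17.7 and 15.3 CPM at 0 h, 35.8 and 26.7 CPM at 24 h, 18.2 and 21.7 CPM at 36 h, and 14.5, 15.2, 10.7 and 13.0 CPM at 48 h. Both sections at 24 h lay above the other 9, and the log2 fold change against 0 h was 0.92 ± 0.17 (SE; edgeR adjusted p = 0.0016). Psmd8, a lid subunit, stood at 157, 156 and 163 CPM at 0 h and 266 and 314 CPM at 24 h, a log2 fold change of 0.87 ± 0.15 (adjusted p = 0.0011). Its values of 197 and 228 CPM at 36 h, and 193, 167, 195 and 140 CPM at 48 h, lay below both 24 h sections, and only 1 of them lay below the 0 h values. Chosen for their roles after the values were seen, Psmd2, the partner scaffold of Psmd1, rose by 0.47 ± 0.10 (adjusted p = 0.0042), Psmd14, the deubiquitinase of the lid, by 0.33 ± 0.12 (adjusted p = 0.044), and Psmd4, a ubiquitin receptor, by 0.34 ± 0.10 (adjusted p = 0.023). Psmd6, another lid subunit, was the lowest of the group, at -0.20 ± 0.12 (adjusted p = 0.18).

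Of the 6 ATPases of the cap, Psmc3, Psmc4 and Psmc5 rose. Psmc4 stood at 97.1, 88.9 and 99.4 CPM at 0 h and 137 and 119 CPM at 24 h, a log2 fold change of 0.43 ± 0.10 (edgeR adjusted p = 0.0066). At 36 h, with 85.1 and 79.5 CPM, and at 48 h, with 72.4 to 76.0 CPM, every section lay below every 0 h section. Psmc1 was the lowest of the 6 at 24 h, at 0.11 ± 0.11 (adjusted p = 0.46). The 3 assembly factors, which help the base of the cap to form and are not part of the finished particle, showed no call in either direction. Psmd5 was at 0.01 ± 0.16 (adjusted p = 0.96), with its sign depending on the setting, and Psmd9 at -0.14 ± 0.12 (adjusted p = 0.38).

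In the core at 24 h, Psmb5, which carries the chymotrypsin-like activity, rose. It stood at 171, 167 and 174 CPM at 0 h, 232 and 214 CPM at 24 h, 154 and 169 CPM at 36 h, and 133, 124, 131 and 122 CPM at 48 h. Both 24 h sections lay above all others, and the log2 fold change against 0 h was 0.39 ± 0.10 (edgeR adjusted p = 0.0091). Psmb6, the caspase-like subunit, was at 0.30 ± 0.11 (adjusted p = 0.05) and not called. Psmb7, the trypsin-like subunit, was at -0.11 ± 0.10 (adjusted p = 0.40), and Psmb1, a structural beta subunit, was the lowest of the beta ring at -0.12 ± 0.10 (adjusted p = 0.38). In the alpha ring, which gates the barrel, values ran from 0.23 ± 0.14 for Psma1 (adjusted p = 0.23) to -0.35 ± 0.13 for Psma5 (adjusted p = 0.043). Psma5 stood at 102, 82.1 and 83.0 CPM at 0 h and 67.2 and 71.9 CPM at 24 h, and its log2 fold change was -0.03 with total-count scaling.

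Of the 5 immunoproteasome genes, 4 fell at 24 h and 0 rose, and their median was 0.44 below that of all genes with either scaling. Psmb9 fell the most: it stood at 28.3, 23.1 and 30.4 CPM at 0 h, 16.41 and 11.04 CPM at 24 h, 23.6 and 22.0 CPM at 36 h, and 18.3, 24.8, 24.4 and 24.8 CPM at 48 h. Its 24 h sections were the lowest of all 11, and its log2 fold change was -0.98 ± 0.19 (edgeR adjusted p = 0.0025) and -0.65 with total-count scaling, where it was called as well. Psmb8 stood at 50.8, 47.8 and 60.6 CPM at 0 h and 43.8 and 34.8 CPM at 24 h (-0.43 ± 0.15, adjusted p = 0.036). Psme1, at 170, 172 and 176 CPM against 149 and 123 CPM, fell by 0.35 ± 0.12 on the log2 scale (adjusted p = 0.039), and Psme2, at 108, 108 and 114 CPM against 89.0 and 77.8 CPM, by 0.40 ± 0.11 (adjusted p = 0.014). With total-count scaling Psmb8, Psme1 and Psme2 were at -0.10, -0.02 and -0.07, so these 3 fell relative to the typical gene, and not detectably as a share of all UMIs. They also lost their calls without section B of 24 h (Psmb8 -0.28, Psme1 -0.21, Psme2 -0.30), where 1 of the 41 genes was called lower, and Psmb9 kept its call (-0.73). Psmb8 lost its call without section 4 of 0 h as well (-0.37), and Psme1 without any one section of 0 h (-0.40 to -0.38) or without section A or B of 48 h (both -0.35). Psmb10 was not called, at 39.4, 47.9 and 55.0 CPM against 56.6 and 45.3 CPM (0.10 ± 0.15, adjusted p = 0.60). Psme3, which encodes a nuclear activator outside the interferon system, was at 0.17 ± 0.10 (adjusted p = 0.21).

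**Figure D2:**
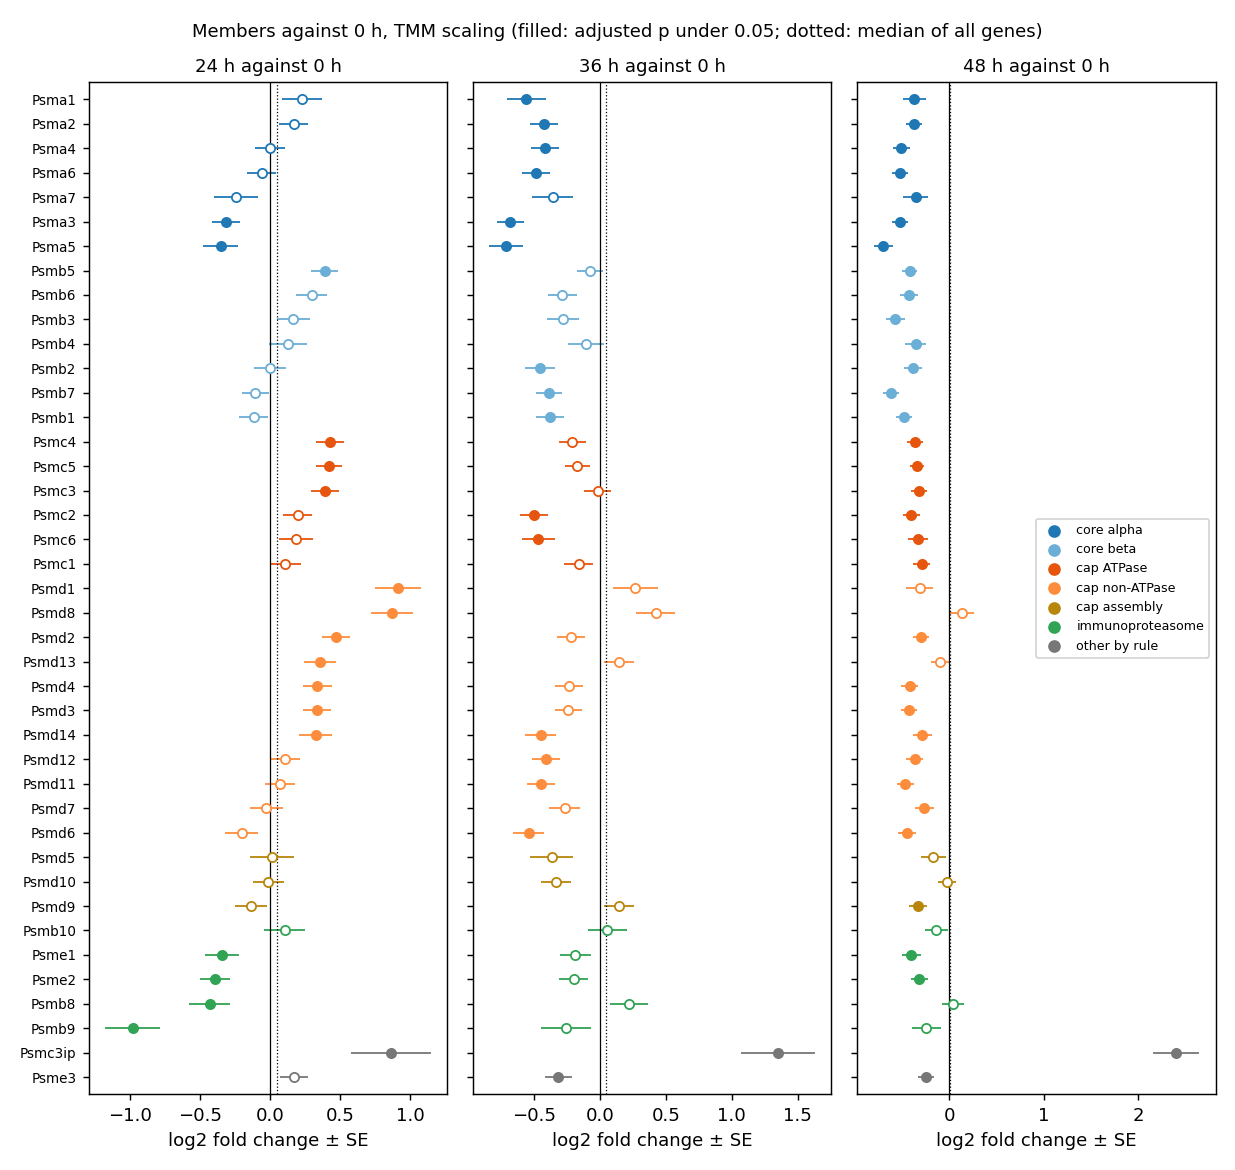
Log2 fold change (horizontal axes, ± SE, TMM scaling) of the 41 genes at 24 h, 36 h and 48 h against 0 h, ordered within each group by the value at 24 h; filled points have an adjusted p under 0.05 and the dotted line is the median of all genes. At 24 h the 10 cap genes (orange) that passed lie to the right, with Psmd6 and Psmd7 left of 0, and 4 of the 5 immunoproteasome genes (green) lie to the left, and nearly all genes lie left of the dotted line at 48 h.

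Markers of mononuclear phagocytes (4 genes) summed to 409 to 434 CPM at 0 h, 553 to 595 CPM at 24 h, 448 to 623 CPM at 36 h and 722 to 1330 CPM at 48 h, and those of neutrophils (4 genes) to 1.98 to 7.86, 38.4 to 136, 20.9 to 60.3 and 29.7 to 105 CPM. Markers of T cells (3 genes) summed to 2.38 to 3.36 CPM at 0 h, 0.893 to 1.57 CPM at 24 h, 1.20 to 1.30 CPM at 36 h and 1.11 to 2.40 CPM at 48 h, and those of B cells (3 genes) to 1.76 to 4.90 CPM throughout. Hepatocyte markers (6 genes) summed to 110000 to 115000 CPM at 0 h and 72900 to 99100 CPM after injury, so the tissue was liver in every section. All these sums are TMM-scaled and are not given by total UMIs. The lower hepatocyte sums after injury need not be a fall in the share of all UMIs. Single markers did not move together. Hp stood at 2390 to 3570 CPM at 0 h and 5070 to 21800 CPM after injury. Alb, Ttr, Apoa1 and Cyp2e1 were lower in every injured section, and Hnf4a overlapped. Of the phagocyte markers, Csf1r was lower at 24 h (46.9 and 48.3 CPM, against 69.6 to 72.1 CPM at 0 h), while Lyz2, Cd68 and Cd5l were higher. Markers of endothelia (7 genes) summed to 202 to 325 CPM and those of cholangiocytes (4 genes) to 235 to 293 CPM at 0 h and 325 to 1140 CPM after injury, the latter almost wholly from Krt8, which hepatocytes also express. Markers of mesenchyme (7 genes) reached 674 to 1470 CPM and those of cycling cells (3 genes) 26.7 to 80.2 CPM at 48 h, from 250 to 286 and 2.05 to 3.05 CPM at 0 h. The part of these cell types in the proteasome values was not tested, and in whole sections fewer cells of a type and less RNA per cell cannot be told apart.

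At 36 h against 0 h, 1 of the 41 genes rose (Psmc3ip) and 16 fell, where 16.8% of all genes rose and 12.4% fell. The core carried most of the calls, with 9 of 14 falling, against 6 of 17 in the cap, 0 of 5 in the immunoproteasome, and Psme3. Relative to the median of all genes the core median was 0.45 lower, the cap median 0.28 lower and the immunoproteasome median 0.23 lower, and with total-count scaling these gaps were 0.45, 0.28 and 0.23. The sign of the fold itself was less settled: 6 of the 16 had a positive log2 fold change with total-count scaling, and 0 of the 16 were called lower there.

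The lowest core gene at 36 h was Psma5, at 49.5 and 58.9 CPM, below all 3 sections of 0 h (-0.71 ± 0.13, edgeR adjusted p = 0.0031, and -0.28 with total-count scaling). Psma7 was the highest of the alpha ring (-0.36 ± 0.16, adjusted p = 0.11). In the beta ring Psmb2, a structural subunit, was the lowest (-0.45 ± 0.11, adjusted p = 0.015) and Psmb5 the highest (-0.08 ± 0.10, adjusted p = 0.59). Psmb6 was at -0.29 ± 0.11 (adjusted p = 0.076) and Psmb7 fell by 0.39 ± 0.10 (adjusted p = 0.015).

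In the cap at 36 h, Psmc2 was the lowest ATPase (-0.50 ± 0.11, edgeR adjusted p = 0.0066) and Psmc3 the highest (-0.02 ± 0.10, adjusted p = 0.92). Psmd6 fell by 0.54 ± 0.12 (adjusted p = 0.0075), while Psmd8 was the highest at 0.42 ± 0.15 (adjusted p = 0.056). Psmd5 was at -0.37 ± 0.16 (adjusted p = 0.11) and Psmd9 at 0.14 ± 0.12 (adjusted p = 0.37). Of the immunoproteasome genes, Psmb8 was at 0.22 ± 0.14 (adjusted p = 0.27), Psmb9 at -0.26 ± 0.19 (adjusted p = 0.32), Psmb10 at 0.06 ± 0.15 (adjusted p = 0.80), Psme1 at -0.19 ± 0.12 (adjusted p = 0.26) and Psme2 at -0.20 ± 0.11 (adjusted p = 0.18). Psme3 fell by 0.32 ± 0.10 (adjusted p = 0.04).

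At 36 h, 22 of the 41 genes had fallen against 24 h and 2 had risen, where 8.58% of all genes fell and 7.04% rose. The 22 were 9 core genes, 12 cap genes and Psme3, and the 2 were Psmb8 and Psmb9. With total-count scaling 12 of the 22 and both of the 2 were called in the same direction, and none of the 24 changed sign. Relative to all genes the cap median was 0.59 lower, the core median 0.44 lower and the immunoproteasome median 0.17 higher. Psmb8 rose by 0.65 ± 0.16 (edgeR adjusted p = 0.024) and Psmb9 by 0.73 ± 0.21 (adjusted p = 0.041), while Psmb5 fell by 0.47 ± 0.11 (adjusted p = 0.021) and Psmb6 by 0.58 ± 0.12 (adjusted p = 0.014). These counts rest on 2 sections a group: 3 genes fell and 1 rose without section A of 24 h, 0 rose without section B of 24 h or section B of 36 h, and 11 fell without section B of 36 h. With only the 2 groups in the fit, or with the section letter as a block, 0 fell and 0 rose.

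By 48 h the picture was broader. Against 0 h, 32 of the 41 genes fell and 1 rose (Psmc3ip), where 20.9% of all genes fell and 23.3% rose. All 14 core genes fell, as did 14 of 17 cap genes, 2 of 5 immunoproteasome genes (Psme1 and Psme2), Psmd9 and Psme3. The core median lay 0.46 below that of all genes, the cap median 0.34 below and the immunoproteasome median 0.25 below, with gaps of 0.46, 0.34 and 0.25 under total-count scaling. As shares of all UMIs, however, 29 of the 32 had a positive log2 fold change under total-count scaling and 4 of them were called higher there, so the fall is one relative to the typical gene.

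Psma5 again had the lowest value in the core at 48 h, with 56.4, 55.5, 57.0 and 50.4 CPM (-0.70 ± 0.10, edgeR adjusted p = 0.00044, and -0.17 with total-count scaling). Psmb7 followed (-0.61 ± 0.08, adjusted p = 0.00022), with 113, 106, 113 and 110 CPM against 180, 159 and 168 CPM at 0 h, and without overlap. Psmb5 fell by 0.42 ± 0.08 (adjusted p = 0.0022) and Psmb6 by 0.43 ± 0.09 (adjusted p = 0.0038), and the highest members of the 2 rings were Psma7 (-0.36 ± 0.13, adjusted p = 0.046) and Psmb4 (-0.35 ± 0.11, adjusted p = 0.026). All 14 core values thus lay between -0.70 and -0.35, against -0.35 to 0.39 at 24 h.

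In the cap at 48 h, the ATPases ran from -0.40 ± 0.09 for Psmc2 (edgeR adjusted p = 0.0038) to -0.29 ± 0.09 for Psmc1 (adjusted p = 0.025). Psmd11, a lid subunit, was the lowest of the others (-0.46 ± 0.09, adjusted p = 0.002) and Psmd8 the highest (0.13 ± 0.13, adjusted p = 0.41). The assembly factors ran from -0.33 ± 0.10 for Psmd9 (adjusted p = 0.018) to -0.02 ± 0.09 for Psmd10 (adjusted p = 0.87). Psmb8, with 46.1, 56.7, 57.8 and 57.5 CPM, was not called with TMM (0.04 ± 0.12, adjusted p = 0.81) and was called higher with total-count scaling (0.57, edgeR adjusted p = 0.0023). Psmb9 was at -0.24 ± 0.16 (adjusted p = 0.23) and Psmb10 at -0.14 ± 0.12 (adjusted p = 0.38), while Psme1 fell by 0.40 ± 0.10 (adjusted p = 0.0075), Psme2 by 0.32 ± 0.09 (adjusted p = 0.015) and Psme3 by 0.25 ± 0.08 (adjusted p = 0.033). Between 36 h and 48 h, 0 of the 41 genes rose and 1 fell, where 1.62% of all genes rose and 1.43% fell, and the 1 gene was Psmd9 (-0.48 ± 0.11, adjusted p = 0.047). This call was lost with total-count scaling, without the low-count filter, with only the 2 groups in the fit, and in 9 of the 11 fits that left out 1 section.

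Psmc3ip behaved unlike the true subunits. It stood at 0.660, 0.534 and 0.763 CPM at 0 h, 1.38 and 0.957 CPM at 24 h, 1.48 and 1.83 CPM at 36 h, and 2.45, 3.81, 3.67 and 3.77 CPM at 48 h. The 48 h sections lay above all others and the log2 fold change was 2.40 ± 0.24 (edgeR adjusted p = 5.8e-05), with cycling-cell markers highest at the same time. It was the only gene of the 41 that rose at 36 h and at 48 h. Every section of 0 h lay below the minimum of 1 CPM, so this gene entered the set only through injured sections. Its rises against 0 h were therefore favoured by how the genes were chosen.

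Shares within the proteasome need no scaling between libraries. Cap genes took 35.9%, 35.9% and 36.2% of core and cap UMIs at 0 h, 40.6% and 41.7% at 24 h, 39.3% and 39.6% at 36 h, and 39.3%, 38.9%, 38.5% and 39.0% at 48 h. Every injured section lay above every uninjured one. The mean was 36.0% ± 0.208 (SD, n = 3) at 0 h and 39.6% ± 1.07 (SD, n = 8) after injury (two-sided exact permutation test, p = 0.01212, the smallest that 3 against 8 sections can give; 0.02424 after Benjamini-Hochberg adjustment over the 2 shares tested). Counting error is small beside this, with 95% Wilson intervals of at most 0.286 percentage points to each side, and these intervals cover counting error only. Psmd8 alone had means of 158.5, 289.7, 212.5 and 174.0 CPM at 0 h, 24 h, 36 h and 48 h. The mean cap sums that include it were 1447, 1854, 1292 and 1192 CPM. The cap share without Psmd8 was not calculated, so how far the difference rests on this 1 gene is not given. Levels of different genes are not compared here, since a share also depends on how well each transcript is captured.

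Psmb8, Psmb9 and Psmb10 together took 16.6%, 17.6% and 19.8% of the UMIs of Psmb5 to Psmb10 at 0 h, 14.1% and 12.4% at 24 h, 22.0% and 20.9% at 36 h, and 19.8%, 23.6%, 22.7% and 23.5% at 48 h. Injured sections lay on both sides of the uninjured ones: both at 24 h were below, 5 of the others were above, and section A of 48 h was level with the highest of 0 h within counting error. Pooled over time the difference was 1.90 percentage points, with 18.0% ± 1.66 (SD, n = 3) against 19.9% ± 4.31 (SD, n = 8; two-sided exact permutation test, p = 0.4727, adjusted p = 0.4727). The 3 replacing subunits did not share this course. Psmb8 in the UMIs of Psmb5 and Psmb8 averaged 23.7% at 0 h, 14.9% at 24 h and 27.7% at 36 h and ran from 25.7% to 32.1% at 48 h, and Psmb9 in those of Psmb6 and Psmb9 averaged 10.1%, 4.37% and 10.3% and ran from 9.05% to 12.7% at 48 h. Psmb10 in those of Psmb7 and Psmb10 averaged 21.9%, 24.5%, 27.6% and 28.1%, with no dip at 24 h, and these pair shares are given without a test.

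**Figure D3:**
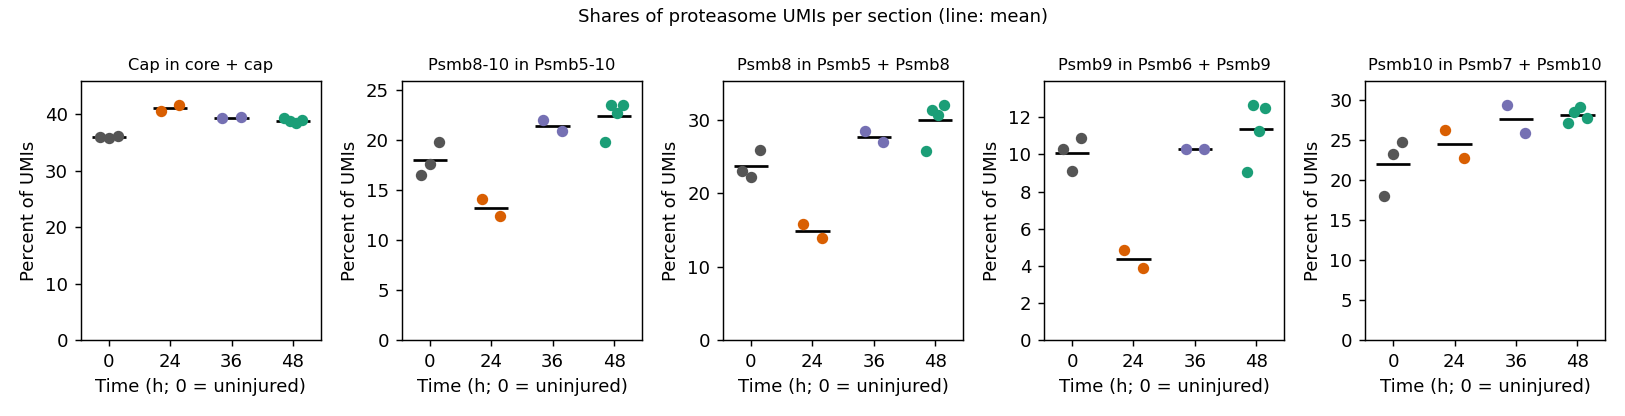
Share of UMIs in each section (vertical axes, percent, from 0) against time, for the cap within core and cap, for Psmb8 to Psmb10 within Psmb5 to Psmb10, and for each replacing subunit within its pair; lines are means. The cap share is above the 0 h sections in all 8 injured sections, and the Psmb8 and Psmb9 shares are lowest in the 2 sections at 24 h while that of Psmb10 is not.

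Other genes of the pathway were counted by lists, to be read against the shares of all genes given above (23.1% higher and 18.6% lower at 24 h, 16.8% and 12.4% at 36 h, 23.3% and 20.9% at 48 h, and 7.04% and 8.58% from 24 h to 36 h). Of 13 ubiquitin and shuttle genes tested, 4 rose and 1 fell at 24 h, and Ubb, a polyubiquitin gene, was among those that rose (0.86). At 36 h 0 rose and 4 fell and at 48 h 0 rose and 8 fell, and 6 of these 8 were positive with total-count scaling. From 24 h to 36 h 1 rose and 5 fell, led by Vcp (-0.85), the ATPase that extracts ubiquitinated proteins, and Sqstm1 (-0.79), an autophagy receptor.

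Of 15 genes for proteasome assembly and regulation, 1 rose and 4 fell at 24 h, 0 rose and 4 fell at 36 h, and 1 rose and 9 fell at 48 h. With total-count scaling, 7 of the 9 at 48 h and 2 of the 4 at 36 h were positive. Ngly1, a deglycosylating enzyme that NFE2L1 needs to become active, had the largest change at 24 h (-1.06), and the 1 gene that rose was Adrm1, a ubiquitin receptor of the cap (0.41). Adrm1 then had the largest step of the list from 24 h to 36 h (-0.97). Sem1, another cap subunit, was among the 4 that fell at 24 h. Its log2 fold change was -0.49 ± 0.12 (edgeR adjusted p = 0.0093), and -0.16 with total-count scaling. Of 10 antigen presentation genes, 0 rose and 4 fell at 24 h, with B2m, the light chain of MHC class I, at -1.41 and H2-K1, a heavy chain, at -1.29, and both fell with total-count scaling as well. At 36 h 1 rose and 2 fell and at 48 h 1 rose and 4 fell, and 2 of these 4 were positive with total-count scaling. From 24 h to 36 h 2 rose and 0 fell, and Tap2, a chain of the peptide transporter, was the higher of these at 0.56.

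Across spots, core and cap transcripts varied little more than random sampling would give in uninjured liver, and were most uneven in the 2 sections at 24 h. A Visium spot covers several cells, so the unit here is a small region. With each spot thinned to 5000 UMIs, which left out 1 to 260 spots a section, a spot held a mean of 9.90 to 10.3 core UMIs at 0 h and 12.3 and 14.1 at 24 h. The variance over the mean of the core UMIs (the Fano factor, near 1 for random sampling) was 1.05 to 1.09 at 0 h, 1.68 and 1.93 at 24 h, 1.28 and 1.51 at 36 h, and 1.12 to 1.34 at 48 h. For the cap it was 1.02 to 1.07, 1.54 and 1.72, 1.22 and 1.41, and 1.07 to 1.30. For the immunoproteasome genes, with a mean of only 1.43 to 2.13 UMIs a spot, it was 1.04 to 1.19 in all 11 sections. A mean this low holds the factor near 1, so it is not compared with those of the core and cap.

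Core and cap UMIs were more closely related over the spots of each of the 8 injured sections than in the 3 uninjured ones. Spearman's rho between core and cap UMIs over the spots of a section was 0.0210 to 0.0604 at 0 h, 0.307 and 0.391 at 24 h, 0.199 and 0.261 at 36 h, and 0.126 to 0.231 at 48 h. Between the core UMIs of a spot and the mean of the spots touching it, rho was 0.0624 to 0.141 at 0 h, 0.367 and 0.401 at 24 h, 0.196 and 0.286 at 36 h, and 0.105 to 0.222 at 48 h, where sections B and D lay below the highest of 0 h. Cell type scores moved with these values: rho of the core UMIs with the phagocyte score was -0.0366 to 0.00134 at 0 h and 0.144 to 0.321 after injury, and with the hepatocyte score 0.0640 to 0.0814 at 0 h and -0.236 to -0.0767 after injury. Their part in the pattern was not tested. The immunoproteasome sum had a neighbour rho of -0.0163 to 0.115 in all sections, but its few UMIs a spot limit any rho. Its rho with the phagocyte score was 0.0156 to 0.0402 at 0 h and 0.0389 and 0.0483 at 24 h. At 36 h it was 0.0455 and 0.0988, and at 48 h 0.159 to 0.220, which was not tested either. These are descriptions over 1489 to 3343 spots that share a library and a depth. The maps of single sections show the patches at 24 h.

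**Figure D4:**
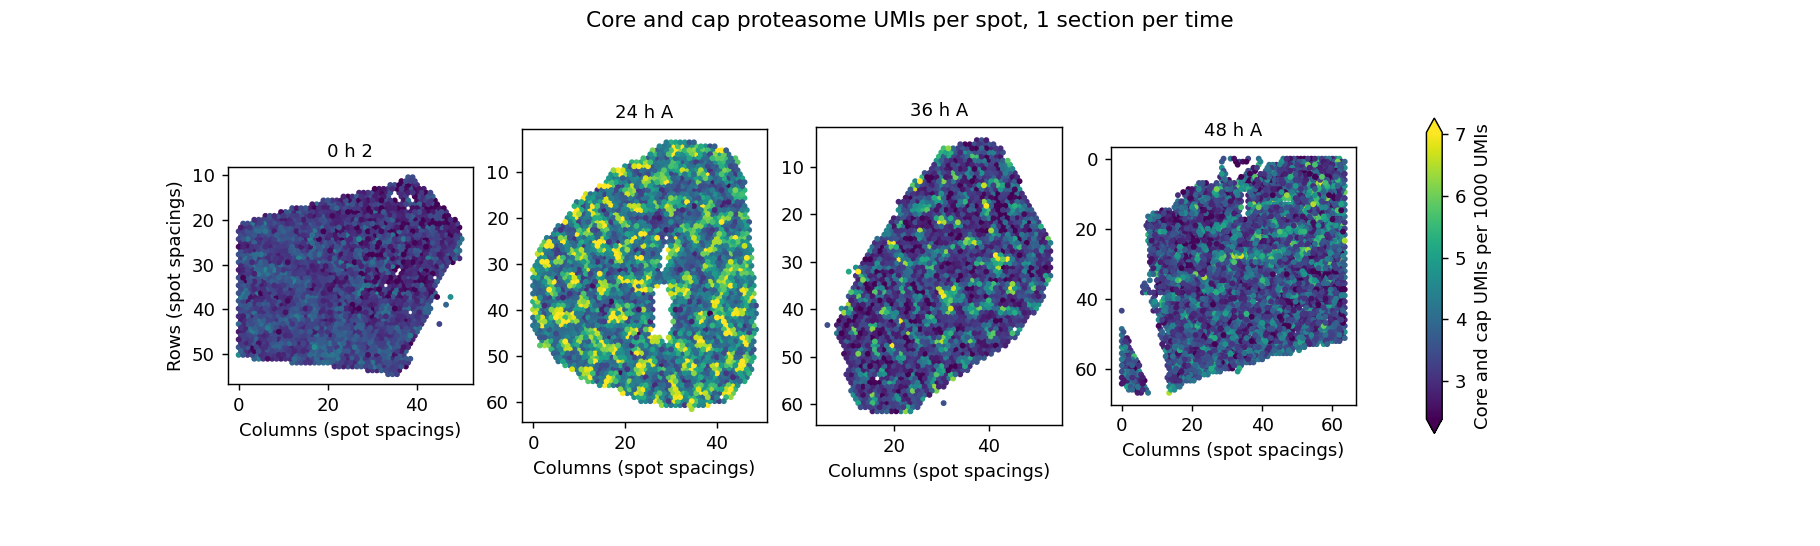
Core and cap UMIs per 1000 UMIs (colour) at each kept spot of section 2 at 0 h and section A at 24 h, 36 h and 48 h; axes are in spacings between spots and the colour scale is shared. The median spot is at 3.23 at 0 h and 4.47 at 24 h, and the 5th to 95th percentiles widen from 2.43 to 4.0 at 0 h to 3.29 to 7.03 at 24 h, with the high spots in clusters.

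The lobule of the liver runs from the portal tract to the central vein, and APAP is known to injure the central side. In uninjured liver, the fifth of spots with the most central expression was set against the fifth with the most portal expression, by lists that hold no proteasome gene. Of the 40 genes tested, 29 were higher in central spots and 1 in portal spots, where 11.9% of all 11738 genes were higher and 13.1% lower (edgeR with section as a block). The 29 were 13 of 14 core genes, 14 of 17 cap genes, Psmd5 and Psme1, and the medians were 0.20 for the core and 0.18 for the cap with that of all genes at 0.00. All 29 were called with total-count scaling as well, and 12 genes were called higher with DESeq2. Psma5 stood at 90.5, 76.6 and 76.0 CPM in central spots and 72.7, 56.3 and 55.7 CPM in portal spots of the 3 sections, a log2 difference of 0.40 ± 0.04 (adjusted p = 1.9e-10). Psmb8 was the exception, at 34.1, 33.3 and 44.5 CPM in central and 44.1, 44.4 and 49.9 CPM in portal spots (-0.32 ± 0.06, adjusted p = 8.6e-06). Psmb5 (0.17 ± 0.04), Psmb6 (0.09 ± 0.03) and Psmb7 (0.25 ± 0.04) were central, whereas Psmb9 (-0.08 ± 0.08) and Psmb10 (-0.06 ± 0.06) were not called.

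The excess in spots ranked central was largest in the sections at 24 h. Spots are ranked within each section, and the paper reports disruption of hepatocyte zonation in mouse liver after APAP. Spots ranked central therefore need not be the same zone at each time. Relative to the median gene, the core sum was 0.161 to 0.217 log2 units higher in central spots at 0 h, 0.282 and 0.337 at 24 h, 0.0325 and 0.199 at 36 h, and -0.0772 to 0.0419 at 48 h. The cap sum was 0.160 to 0.192 higher at 0 h, 0.310 and 0.403 at 24 h, 0.0374 and 0.295 at 36 h, and 0.00265 to 0.0989 at 48 h. The sections of 0 h, 24 h and 48 h did not overlap in either sum, and the 2 sections of 36 h lay far apart. Averaged over all 8 injured sections and relative to the median gene, the contrast minus that at 0 h was -0.09 log2 units for the core (two-sided exact permutation test, p = 0.3394) and -0.03 for the cap (exact permutation p = 0.7515), neither beyond the spread. Without subtracting the median gene the differences were 0.03 (exact permutation p = 0.897) and 0.09 (exact permutation p = 0.5455), with p-values of 0.897 and 0.6137 after adjustment over 9 such tests.

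After injury, spots low in hepatocyte transcripts were set against spots at least 3 grid steps away, in the 5 sections with at least 20 spots of both kinds (section A at 24 h and the 4 at 48 h). Of the 41 genes 6 were higher in hepatocyte-low spots and 0 lower, where 30.8% of all 12984 genes were higher and 23.3% lower. The 6 were Psmc3, Psmd13, Psmd14, Psmb8, Psme3 and Psmc3ip. The core median was at the median of all genes (0.01 above it) and the cap median 0.07 below, whereas all 41 genes were called higher with total-count scaling, with which the median of all genes itself was 0.52. Psmb8 had the largest difference of the subunits, 0.53 ± 0.10 (edgeR adjusted p = 4.3e-05). In hepatocyte-low against far spots it stood at 50.6 against 51.9 CPM in the 24 h section, and at 87.9 against 57.7, 86.1 against 71.9, 113 against 70.8, and 115 against 72.7 CPM in the 48 h sections. The CPM here are scaled within this comparison. Psmb8 was higher in hepatocyte-low spots in all 4 sections at 48 h and not in the 1 at 24 h. Without that section 3 genes were higher and 7 lower.

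Spots rich in mononuclear phagocyte transcripts were set against the other spots in all 8 injured sections. Of the 41 genes 9 were higher and 2 lower, where 31.8% of all 13115 genes were higher and 28.7% lower. The 9 were Psma5, Psmb5, Psmd8, Psmd14, Psmd10, Psmb8, Psmb10, Psme2 and Psmc3ip, and the 2 were Psma4 and Psmd9, both of which had the opposite sign with total-count scaling. The medians of the core, the cap and the immunoproteasome lay 0.06, 0.05 and 0.13 above that of all genes. Psmb8 was higher by 0.29 ± 0.06 (edgeR adjusted p = 0.00057) and in all 8 sections, at 42.4 against 39.2 CPM in section B of 24 h and at 95.1 against 65.2 CPM in section D of 48 h. Psmb10 was higher by 0.15 ± 0.06 (adjusted p = 0.032), Psme2 by 0.15 ± 0.05 (adjusted p = 0.015) and Psmb5 by 0.13 ± 0.06 (adjusted p = 0.044). Psmb9 was at 0.05 ± 0.08 (adjusted p = 0.62) and Psme1 at 0.07 ± 0.06 (adjusted p = 0.32). The classes differ in phagocyte content by construction, and its part in these values was not tested.

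**Figure D5:**
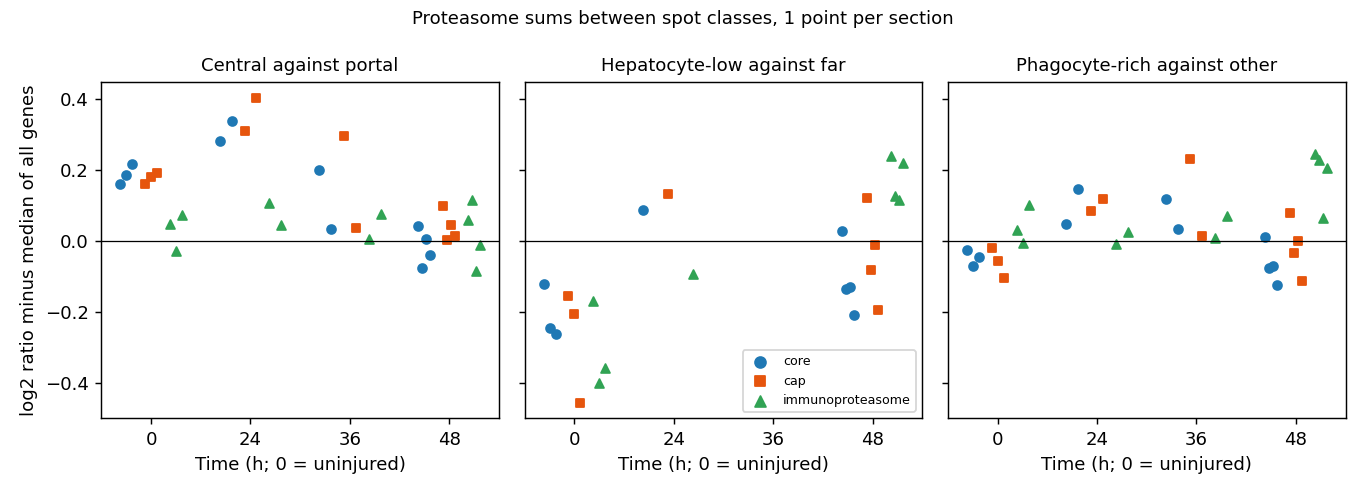
Log2 ratio of the core, cap and immunoproteasome sums between 2 classes of spots in each section, minus the median log2 ratio of all genes (vertical axes), against time. Core and cap are above 0 in spots ranked central within their section at 0 h and 24 h and near 0 at 48 h. The immunoproteasome is above 0 in hepatocyte-low and phagocyte-rich spots in the 4 sections at 48 h.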

How the data were processed

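The authors deposited raw UMI counts per gene and spot barcode for each section, made with Space Ranger 1.0.0 on mm10 (the labels' processing notes also list Seurat 4.1.1), and these deposited counts are not normalized. Spots under tissue entered if 800 or more genes were detected and mitochondrial UMIs made up no more than 20%, and counts were summed per section. Sections were grouped by the labelled time point and all 11 entered 1 edgeR 4.0.16 quasi-likelihood fit (R 4.3.3, limma 3.58.1, TMM scaling, low-count filter by time), with Benjamini-Hochberg adjusted p under 0.05 as the call. Spot classes were set on spots thinned to 2000 UMIs: central and portal spots are the highest and lowest 20% of a zonation score, phagocyte-rich spots at most the top 10% by Lyz2, Csf1r, Cd68 and Cd5l (ties left out), and hepatocyte-low spots lie under the 1st percentile of 0 h by hepatocyte genes. Their sums were fitted with section as a block. Shares were compared by exact permutation tests (scipy 1.17.1). Scripts were tested on simulated data.

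The members and lists were chosen with earlier results of these data known. Named genes are Psmb5 to Psmb10, Psme1 to Psme3, the highest and lowest member of each list against 0 h, and the 2 pathway genes of a list with the largest change; others named were chosen after their values were seen. Values of some pathway genes are not reported here. Alternatives were total-count scaling, DESeq2 1.42.0, no low-count filter, all spots under tissue, only the groups compared, other class limits, 2000 UMIs a spot, a replicate block and leaving out each section.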

Additional observations from a re-analysis of the deposited data

Results flagged for a closer look

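Among 50 sets of 4 sections at 48 h that were examined, 5 had 1 section far from the other 3 by Dixon's criterion, where chance gives about 1 in 20. Section A was low for Psmb8 (46.1 CPM, others 56.7 to 57.8), Psmb9 (18.3 CPM, others 24.4 to 24.8) and Psmc3ip (2.45 CPM, others 3.67 to 3.81). It was also the lowest of the 4 in the summed markers of phagocytes (722 CPM), mesenchyme (674 CPM) and cycling cells (26.7 CPM), whose part in these values was not tested. Section C was low for Psma1 (123 CPM, others 133.9 to 135.7) and high for Psmb10 (46.1 CPM, others 41.96 to 42.07).

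The contrast between spot classes was compared between injured and uninjured sections in 9 tests, which were added after the data had been seen, and 3 passed an adjusted p of 0.05 (log2 ratio of CPM by total UMIs, two-sided exact permutation tests, adjusted over the 9). Between phagocyte-rich and other spots it was higher after injury by 0.34 for the core, 0.39 for the cap and 0.35 for the immunoproteasome (8 against 3 sections, each exact permutation p = 0.01212, the smallest possible, adjusted p = 0.03636). Between hepatocyte-low and far spots it was higher by 0.50 for the core, 0.62 for the cap and 0.79 for the immunoproteasome (5 against 3 sections, each exact p = 0.03571, the smallest possible), and these did not pass (adjusted p = 0.05357). For the cap and the immunoproteasome every injured section was positive and every uninjured section negative. By its limit, the hepatocyte-low class at 0 h is only about the lowest 1% of spots, 21 to 25 a section. Its median depth in sections 2, 3 and 4 of 0 h was 31812, 12105 and 6461 UMIs a spot, against 29078, 25206 and 20783 in far spots. In the 5 injured sections it was 15174.5 to 26033.5, against 17042 to 28024. The part of depth in this contrast was not tested. Once the median of all genes was subtracted in each section, the exact p-values were 0.3636, 0.1091 and 0.4606 for the phagocyte-rich contrasts, and 0.1429, 0.07143 and 0.03571 for the hepatocyte-low ones, with the immunoproteasome at 0.43. Because ties were left out, the phagocyte-rich class was a smaller slice at 0 h. It held 64 to 102 spots beside 1873 to 2590 others at 0 h, and 137 to 343 beside 1343 to 3118 after injury. The injured and uninjured classes are therefore not alike in size.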

How the results depend on the processing

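Against 0 h, total-count scaling called 28 genes higher and 1 lower at 24 h, 10 and 0 at 36 h, and 11 and 0 at 48 h, it called 12 lower from 24 h to 36 h, and 1 higher and 0 lower from 36 h to 48 h. It called 41 higher in hepatocyte-low spots, and 40 higher and 0 lower in phagocyte-rich spots. Without the low-count filter, 7 genes were higher at 24 h and 0 lower from 36 h to 48 h. DESeq2 called 2 higher at 36 h, 1 higher and 3 lower from 36 h to 48 h, 12 higher in central spots and 2 in hepatocyte-low spots. With only the groups compared, 0 were higher and 0 lower from 24 h to 36 h, and 0 lower from 36 h to 48 h. With the replicate block over the 8 injured sections, 0 were higher and 0 lower from 24 h to 36 h and 0 lower from 36 h to 48 h, against 0, 13 and 0 in the same sections without the block. The correlation of A minus B between time points was 0.27 for 24 h and 36 h, -0.15 for 24 h and 48 h, and -0.09 for 36 h and 48 h. With 1 such difference for each time point, these values cannot tell whether sections of a letter share a slide, a batch or an animal. Leaving out 1 section gave 3 to 13 higher and 1 to 6 lower at 24 h, 1 to 2 higher and 11 to 17 lower at 36 h, 22 to 32 lower at 48 h, 0 to 2 higher and 3 to 21 lower from 24 h to 36 h, 0 to 1 in either direction from 36 h to 48 h, 24 to 28 higher in central spots, 3 to 5 higher and 0 to 7 lower in hepatocyte-low spots, and 5 to 10 higher in phagocyte-rich spots. The cap share difference stayed between 3.29 and 3.76 percentage points, and that of the immunoproteasome between 1.19 and 2.96. Single genes changed sign mostly with total-count scaling. At 24 h these were Psmb1 (0.21), Psmb7 (0.22), Psmd6 (0.12) and Psmd9 (0.19). At 36 h they were Psma7 (0.073), Psmb5 (0.36), Psmb6 (0.15), Psmb7 (0.051), Psmb9 (0.18), Psmc3 (0.42), Psmd5 (0.076), Psme1 (0.25), Psme2 (0.24) and Psme3 (0.12). At 48 h they were Psma7 (0.17), Psmb4 (0.18), Psmb5 (0.11), Psmb6 (0.10), Psmb9 (0.29), Psmb10 (0.39), Psmc1 (0.24), Psmc2 (0.13), Psmd9 (0.195), Psmd10 (0.51), Psmd11 (0.064), Psme1 (0.13), Psme2 (0.21) and Psme3 (0.28). Psmd5 at 24 h was -0.032 without the filter, -0.00083 with DESeq2 and -0.023 with only the groups compared. Leaving out 1 section moved Psmd5 between -0.19 and 0.18 and Psmb10 between -0.065 and 0.25 at 24 h, Psmb10 between -0.070 and 0.16 and Psmc3 between -0.065 and 0.023 at 36 h, and Psmb8 between -0.033 and 0.14 and Psmd10 between -0.064 and 0.023 at 48 h. Apart from the scaling, the cause was not tested. With 2 sections at 24 h and at 36 h, the number of sections limits these counts.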
